A study of Mus musculus with 2 samples.

Results

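The genes described are 9 members of the prostaglandin and leukotriene pathway, chosen by symbol from the 53717 features of the gene lists: Ptgs1, Ptgs2, Ptgds, Hpgds, Ptger4, Slco2a1, Hpgd, Alox5ap and Ltc4s. All 9 had UMIs (unique molecular identifiers, counts of captured mRNA molecules) in both libraries. The tissue was hippocampus from mice whose strain is labelled 5xFAD, a line whose transgenes drive amyloid plaque formation. One group received AAV9-GFAP::NeuroD1-P2A-GFP, a viral vector carrying the proneural transcription factor NeuroD1 together with GFP, and the other received AAV9-GFAP::GFP. The GFAP promoter is active mainly in astrocytes. The strain label is the same for both groups, but the title of the GFP group begins with Ctrl and that of the NeuroD1 group with AD, so the genotype of the GFP group rests on the strain label alone. Both groups received a vector, both have a recorded time of 6 months, and tissue was taken 3 weeks after injection from 3 mice per group. Each group is 1 library, named here by its label as the NeuroD1 library and the GFP library. Whether the mice of a group were pooled is not stated, and no group without a vector was analysed here.

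Prostaglandins and leukotrienes are short-lived lipid signals made from arachidonic acid. Phospholipases release the fatty acid from membranes; the cyclooxygenases turn it into prostaglandin H2, from which terminal synthases make each prostaglandin; and 5-lipoxygenase, helped by its activating protein, turns it into leukotriene A4. In the brain, prostaglandin D2 is linked to sleep and to inflammation, prostaglandin E2 to fever and pain, and the cysteinyl leukotrienes to vascular leak.

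Cells were assigned to 13 classes by marker genes, and 8 classes with at least 100 cells in each library were compared. Levels are CPM, the UMIs of a gene per 1000000 UMIs of that class and library, followed in brackets by a 95% interval for counting error only. Where 2 values are joined by "and", the NeuroD1 library comes first. Levels are compared between classes or libraries for 1 gene, never between genes. With 1 library per group no test between groups was possible, and "higher" or "lower" between libraries below means a CPM ratio of at least 1.5-fold.

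The libraries differed beyond the vector. The NeuroD1 library held 51236521 UMIs in 13402 barcodes and the GFP library 17504950 in 11739, and the 12784 and 11082 cells kept had medians of 2554.5 and 1169 UMIs. Xist, expressed from the inactive X chromosome, had 0.0413 CPM in the NeuroD1 library, against 102.9 with GFP, while Ddx3y, on the Y chromosome, had 69.5 and 0.0618, so the libraries differed in sex as well, which cannot be told apart from the treatment. In the astrocyte-like class Neurod1 had 12 and 2 UMIs, the vector feature ND1 had 0 UMIs in both libraries, and GFP had 46.6 CPM in the NeuroD1 library against 8079 in the GFP library. Microglia-like cells made up 9.63% of the cells analysed with NeuroD1 and 37.9% with GFP. A total of 99 barcodes occurred in both libraries.

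The regulatory sequence before 2 of the myeloid genes described below, Ptgs1 and Hpgds, shares an octamer of the kind bound by PU.1, the ETS-family factor needed for microglia and macrophages. Promoters of 8 of the 9 members were found in the RefSeq table (build GRCm38.p6). The 250 bases before the annotated start are printed 5′ to 3′ on the gene's strand, with GAGGAAGT or its reverse complement ACTTCCTC in capitals where present, and the last base lies next to the start. Ltc4s, a myeloid and choroid plexus gene, and Ptgds, an oligodendrocyte gene, are shown beside them as windows without the octamer.
Ptgs1 (chr2:36230176-36230425, + strand): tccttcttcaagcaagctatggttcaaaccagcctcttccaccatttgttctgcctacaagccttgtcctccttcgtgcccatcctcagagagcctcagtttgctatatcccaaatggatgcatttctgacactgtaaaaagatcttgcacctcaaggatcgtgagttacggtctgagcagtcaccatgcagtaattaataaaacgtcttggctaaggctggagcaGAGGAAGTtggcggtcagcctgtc
Hpgds (chr6:65144731-65144980, - strand): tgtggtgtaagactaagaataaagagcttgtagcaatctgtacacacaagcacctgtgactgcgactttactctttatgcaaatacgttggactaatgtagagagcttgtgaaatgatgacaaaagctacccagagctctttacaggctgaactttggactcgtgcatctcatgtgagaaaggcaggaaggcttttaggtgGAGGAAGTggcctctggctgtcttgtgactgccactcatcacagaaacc
Ltc4s (chr11:50238533-50238782, - strand): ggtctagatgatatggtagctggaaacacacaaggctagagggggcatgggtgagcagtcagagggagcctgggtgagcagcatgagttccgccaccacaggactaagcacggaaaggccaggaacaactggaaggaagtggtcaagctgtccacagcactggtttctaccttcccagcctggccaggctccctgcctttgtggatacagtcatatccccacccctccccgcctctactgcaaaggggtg
Ptgds (chr2:25469750-25469999, - strand): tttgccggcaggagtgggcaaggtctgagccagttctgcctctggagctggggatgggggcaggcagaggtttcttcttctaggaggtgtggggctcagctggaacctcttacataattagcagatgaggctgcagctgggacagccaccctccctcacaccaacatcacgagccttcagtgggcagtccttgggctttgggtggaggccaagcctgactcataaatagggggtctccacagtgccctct
The octamer begins 24 bases before the start of Ptgs1 and 49 bases before that of Hpgds. It occurs on either strand in 802 (2.44%) of 32851 RefSeq windows of the same length, and in 2 of the 8 members found. Its last 6 letters, GGAAGT, are far more common: they occur on either strand in 19.7% of all windows and in 3 members, Ptgs1, Hpgds and Ltc4s. The octamer was picked after the values and these promoters had been seen, so the matches only describe the sequence.

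The 9 members fell into a few cell classes. Ptgs1, Hpgds, Hpgd, Alox5ap and the larger part of Ptger4 were found in the 2 macrophage classes, microglia-like and border macrophage-like; Ptgds in oligodendrocyte-like and fibroblast-like cells; Ltc4s in the macrophage classes and choroid plexus epithelium; Ptgs2 in endothelial, fibroblast and myeloid cells; and Slco2a1 in astrocyte-like cells. Of 19 member and class pairs that met a minimum level, 9 were higher in the NeuroD1 library, 4 were lower and 6 lay within 1.5-fold. Over all genes and the same 8 classes, 19.1% of pairs were higher and 17.7% lower, with a median log2 ratio of 0.04, against 0.32 for the members. Of the 19 member pairs 7 are in microglia-like cells, where 38.1% of genes were higher, so the pooled shares do not match the mix of classes of the members.

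**Figure D1:**
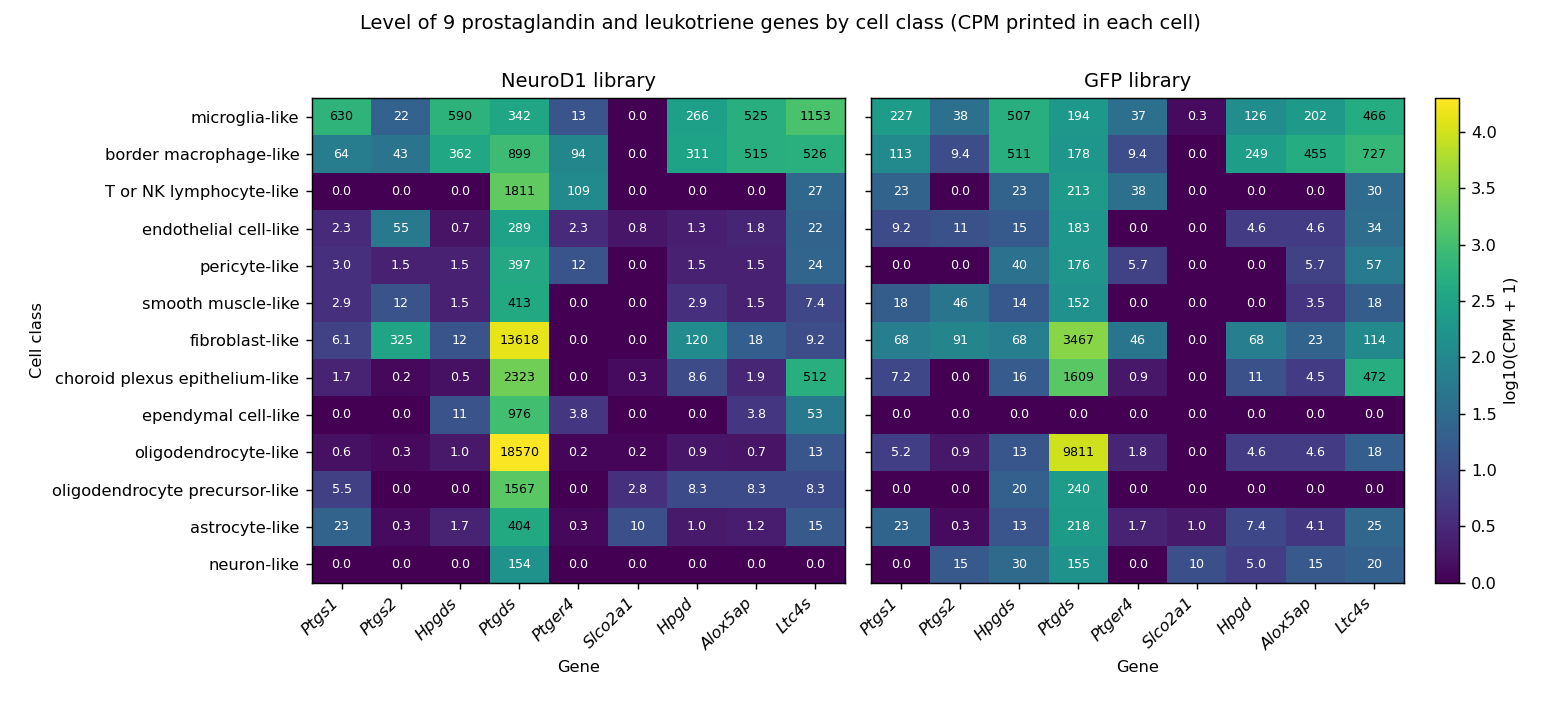
CPM of the 9 genes (columns) in 13 cell classes (rows) in the NeuroD1 library (left) and the GFP library (right); colour is log10(CPM + 1) and the number in each square is the CPM. Ptgds reaches 18570 and 9811 CPM in oligodendrocyte-like cells, while Ptgs1, Hpgds, Hpgd, Alox5ap and Ltc4s stand out in the 2 macrophage rows; the GFP ependymal row and the NeuroD1 neuron row rest on 7 cells each.

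Ptgs1 encodes cyclooxygenase-1, the constitutive form of the enzyme. In microglia-like cells it had 1596 UMIs in the NeuroD1 library, against 1374 with GFP, or 630 CPM (599 to 662) and 227 CPM (215 to 239). The ratio was 2.78 (2.58 to 2.99), and 4 of the 7 member pairs of this class were higher and 2 lower, where 38.1% and 16.3% of all genes of the class were. After each cell was thinned to 500 UMIs, 27.2% of microglia-like cells had a Ptgs1 UMI with NeuroD1 and 9.72% with GFP, beside 0.0317% and 0.396% of oligodendrocyte-like cells, a class that should lack the gene. Without thinning the shares in microglia-like cells were 65.3% and 23.6%, at medians of 1809 and 1205 UMIs per cell. In border macrophage-like cells Ptgs1 was lower in both libraries than in microglia, at 64.1 CPM (42.6 to 92.6) and 113 CPM (72.1 to 167). Its ratio there was 0.569 (0.318 to 1.03), an interval that holds 1, and 18.7% of genes of that class were higher and 18.7% lower.

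Astrocyte-like cells also held Ptgs1, at nearly the same level in both libraries: 22.6 CPM (19.9 to 25.4) from 266 UMIs in the NeuroD1 library, against 23.3 CPM (18.2 to 29.5) from 69 UMIs with GFP. In the NeuroD1 library this was above the other classes without macrophages that had at least 100 cells in each library, which lay between 0.57 and 3.00 CPM. In the GFP library it was not clearly so: smooth muscle-like cells had 17.6 CPM (5.72 to 41.1), an interval that overlaps that of the astrocyte-like cells, and the other such classes had at most 9.15 CPM. The macrophage gene Hpgds had 1.70 CPM in the astrocyte-like cells of the NeuroD1 library, against 12.9 with GFP. Among the astrocyte-like clusters of the NeuroD1 library, Ptgs1 had 25.4 CPM in cluster 1, 15.3 in cluster 2, 35.3 in cluster 11 and 6.53 in cluster 16.

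Ptgs2, the inducible cyclooxygenase-2, was sparse and gathered in few cells. In endothelial cell-like cells it had 328 UMIs in the NeuroD1 library, against 14 with GFP, or 54.6 CPM (48.8 to 60.8) and 10.7 CPM (5.84 to 17.9), a ratio of 5.11 (3.00 to 9.45) in a class where 23.1% of genes were higher and 10.8% lower. Of the 328 UMIs, 284 came from cluster 23, a group of 111 endothelial cells in the NeuroD1 library led by the venular gene Ackr1 and by the inflammation-induced genes Lrg1 and Lcn2. There Ptgs2 reached 460 CPM (408 to 516) and was found in 53 of 111 cells (47.7%), against 7.86 CPM (5.61 to 10.7) in 1668 cells of cluster 5, a 58.5-fold difference (41.9 to 83.6) between clusters of 1 library, where 12.2% of genes were higher and 21% lower by at least 1.5-fold. Ptgs2 had been kept out of the genes used for clustering. The GFP library had 12 cells in cluster 23, with 2 Ptgs2 UMIs, and without that cluster the endothelial ratio was 0.874. In the NeuroD1 cells of cluster 23 all 10 endothelial markers were found, at a summed 23010 CPM, and 1 of 8 border macrophage markers, with 2 UMIs. Markers of other cell types were present too. Microglia markers had 59 UMIs, astrocyte markers 258 and neutrophil markers 5. Oligodendrocyte markers summed to 1418 CPM and choroid plexus markers to 9471 CPM. The part of these in the Ptgs2 level was not tested.

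In microglia-like cells Ptgs2 was lower in the NeuroD1 library, with 55 UMIs or 21.7 CPM (16.4 to 28.3), than in the GFP library, with 231 UMIs or 38.2 CPM (33.4 to 43.4); the ratio was 0.569 (0.416 to 0.766). Of the 231 UMIs in the GFP library, 204 lay in cluster 4, which is led by Il1b, Cst7 and Clec7a. In smooth muscle-like cells Ptgs2 had 8 and 13 UMIs, a ratio of 0.257 (0.0924 to 0.669) where 15% of genes were lower and 19.8% higher, and the 13 UMIs came from 4 cells. In border macrophage-like cells the 19 UMIs of the NeuroD1 library came from 4 cells and the 2 of the GFP library from 1 cell, which gave a ratio of 4.64 (1.12 to 41.0). Fibroblast-like cells, with 119 and 28 cells too few to compare, had the highest Ptgs2 level of any class in the NeuroD1 library, 325 CPM (266 to 393), from 106 UMIs in 16 cells. UMIs of so few cells are not independent, and the intervals are then too narrow.

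**Figure D2:**
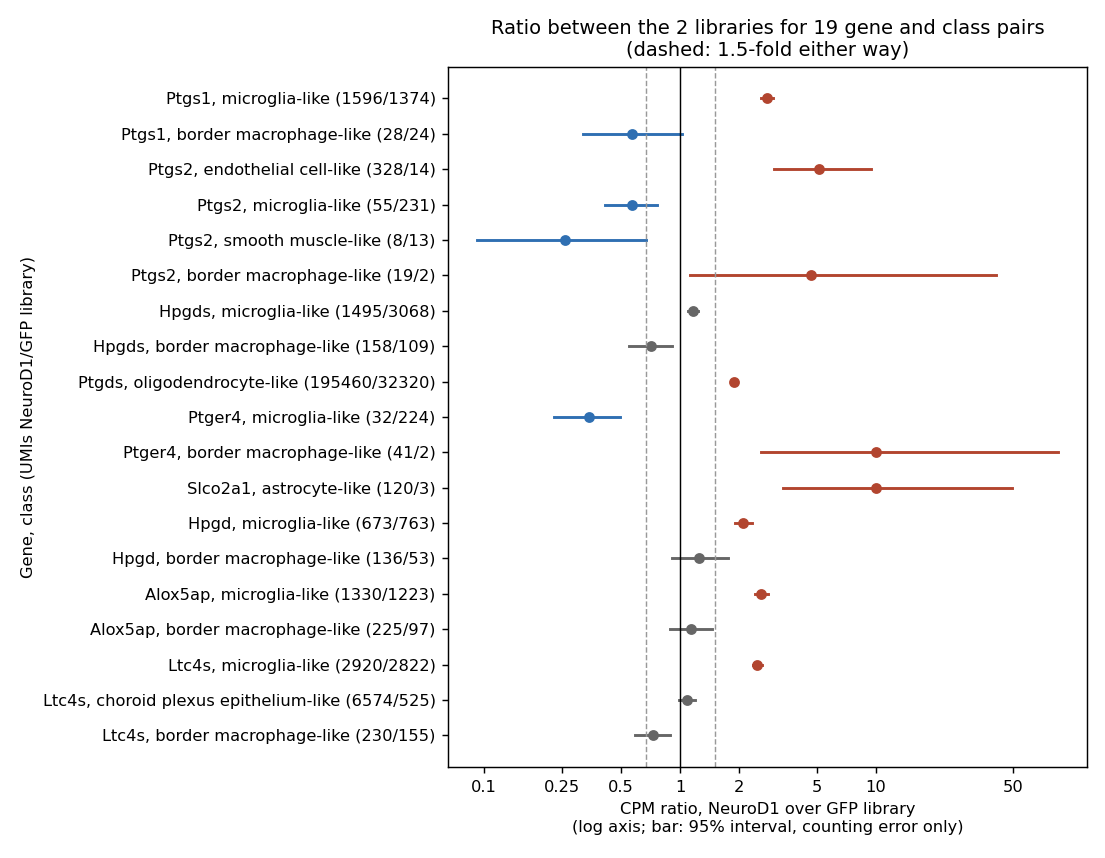
CPM ratio of the NeuroD1 over the GFP library on a log axis for the 19 member and class pairs, with 95% intervals for counting error only and the UMIs of each library in brackets; dashed lines mark 1.5-fold, red is higher, blue lower and grey within it. Ptgs1, Hpgd, Alox5ap and Ltc4s lie together between 2.11 and 2.78 in microglia-like cells, while Ptgs2 and Ptger4 lie below 1 there and above 1 in border macrophage-like cells.

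A pair of unrelated enzymes turns prostaglandin H2 into prostaglandin D2. Ptgds, the lipocalin-type synthase that is also a carrier protein of the cerebrospinal fluid, had the most UMIs of the members, and oligodendrocyte-like cells held 81.6% of its UMIs in the NeuroD1 library, against 88.3% with GFP. Its level there was 18570 CPM (18488 to 18653) in the NeuroD1 library, against 9811 CPM (9704 to 9918) with GFP, a ratio of 1.89 (1.87 to 1.92) in a class where 11.6% of genes were higher and 12.1% lower. The summed level of the 10 oligodendrocyte markers was 72920 and 70283 CPM, nearly level. Other markers were not: those of choroid plexus epithelium summed to 12423 and 6641 CPM in these cells, and those of red blood cells to 644 and 4.86 CPM. Their part in the Ptgds ratio was not tested. All 3 oligodendrocyte-like clusters showed the same direction, with 18599 and 7864 CPM in cluster 0, 23043 and 10078 in cluster 3, and 14029 and 7131 in cluster 24, although the last has 9 cells in the GFP library. Most cells had the transcript: 91.4% and 87.4% had a Ptgds UMI after thinning to 500 UMIs.

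Ptgds was also high in fibroblast-like cells, with 13618 CPM (13221 to 14025) in the NeuroD1 library, against 3467 CPM (2938 to 4064) with GFP, where 92.8% of the 152 UMIs came from 10 cells. Choroid plexus epithelium followed with 2323 and 1609 CPM. The other compared classes were not at 0: astrocyte, microglia, endothelial, pericyte, smooth muscle and border macrophage-like cells had between 289 and 899 CPM in the NeuroD1 library and between 152 and 218 CPM in the GFP library. That low level was thus higher in the NeuroD1 library too, and the part of free RNA in it was not tested. Some of it came from few cells. In the NeuroD1 library 10 border macrophage-like cells held 306 of 393 UMIs, and 1 smooth muscle-like cell held 110 of 280. After thinning to 500 UMIs, between 9.62% and 16.9% of cells of these classes had a Ptgds UMI in the NeuroD1 library. In the GFP library between 7.08% and 10.1% did. With the lowest class level subtracted from every class, the oligodendrocyte ratio was 1.89 as before. That level is so small beside the level of oligodendrocyte-like cells that the subtraction could hardly move their ratio, so it cannot show the part of free RNA. Cluster 16, a group of 243 astrocyte-like cells present only in the NeuroD1 library, had 1274 CPM of Ptgds against 253 in cluster 1 of that library.

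Hpgds, the glutathione-dependent synthase of blood cells, marked the macrophage classes. Microglia-like cells had 1495 and 3068 UMIs, or 590 CPM (561 to 621) in the NeuroD1 library, against 507 CPM (489 to 525) with GFP, a ratio of 1.16 within the 1.5-fold limit. In border macrophage-like cells it had 362 CPM (307 to 423) and 511 CPM (420 to 617), a ratio of 0.707 (0.551 to 0.911). Mast cells are another known source of Hpgds. Of the 6 mast cell markers, microglia-like cells had only Mcpt4 in the NeuroD1 library, with 1 UMI, and only Kit in the GFP library, with 4 UMIs. All 6 were at 0 in border macrophage-like cells. Elsewhere Hpgds stayed low: the remaining compared classes had between 0.545 and 1.70 CPM in the NeuroD1 library and between 12.9 and 39.6 CPM in the GFP library. The 39.6 CPM, in pericyte-like cells, came from 7 UMIs (15.9 to 81.7). The GFP library had more microglia-like cells, and the part of free RNA in these low levels was not tested.

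Ptger4 encodes the EP4 receptor, which signals through cyclic AMP when prostaglandin E2 binds. In microglia-like cells it had 32 UMIs or 12.6 CPM (8.64 to 17.8) in the NeuroD1 library and 224 UMIs or 37.0 CPM (32.3 to 42.2) in the GFP library, a ratio of 0.341 (0.228 to 0.496). In border macrophage-like cells the order was the opposite: 41 UMIs in 24 cells, or 93.8 CPM (67.3 to 127), in the NeuroD1 library and 2 UMIs in 2 cells, or 9.38 CPM (1.14 to 33.9), in the GFP library, a ratio of 10.0 (2.598 to 85.4). T or NK lymphocyte-like cells had 12 UMIs in 59 cells and 5 UMIs in 126 cells, 109 and 38.0 CPM, with overlapping intervals. The other compared classes had at most 11.99 CPM in either library.

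Slco2a1, the transporter that takes prostaglandins up into cells for breakdown, was scarce: 133 UMIs in all cells analysed with NeuroD1 and 7 with GFP. The astrocyte-like class held 120 and 3 of them, or 10.2 CPM (8.44 to 12.2) and 1.01 CPM (0.209 to 2.97), a ratio of 10.0 (3.35 to 49.3) where 9.89% of genes were higher and 22.6% lower. Of the 120 UMIs, 68 came from the 243 cells of cluster 16, where Slco2a1 had 49.4 CPM (38.3 to 62.6) and was found in 51 cells, 10.8 times (7.22 to 16.3) the 4.57 CPM (3.28 to 6.21) of cluster 1 in the same library, where 13.2% of genes were higher and 15% lower by at least 1.5-fold. Without cluster 16 the ratio between libraries was still higher, at 4.92. Cluster 16 is led by Sct, which encodes secretin, Cpne9 and Ucma; it had all 10 astrocyte markers and a Gfap level of 5788 CPM against 1345 in cluster 1. It also held 369 of the 627 GFP UMIs of the NeuroD1 library. Endothelial cell-like cells, in which this transporter is known from other vessels, had 5 UMIs of Slco2a1 in 2042 cells and 0 UMIs in 1018 cells; the latter allows up to 2.29 CPM.

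**Figure D3:**
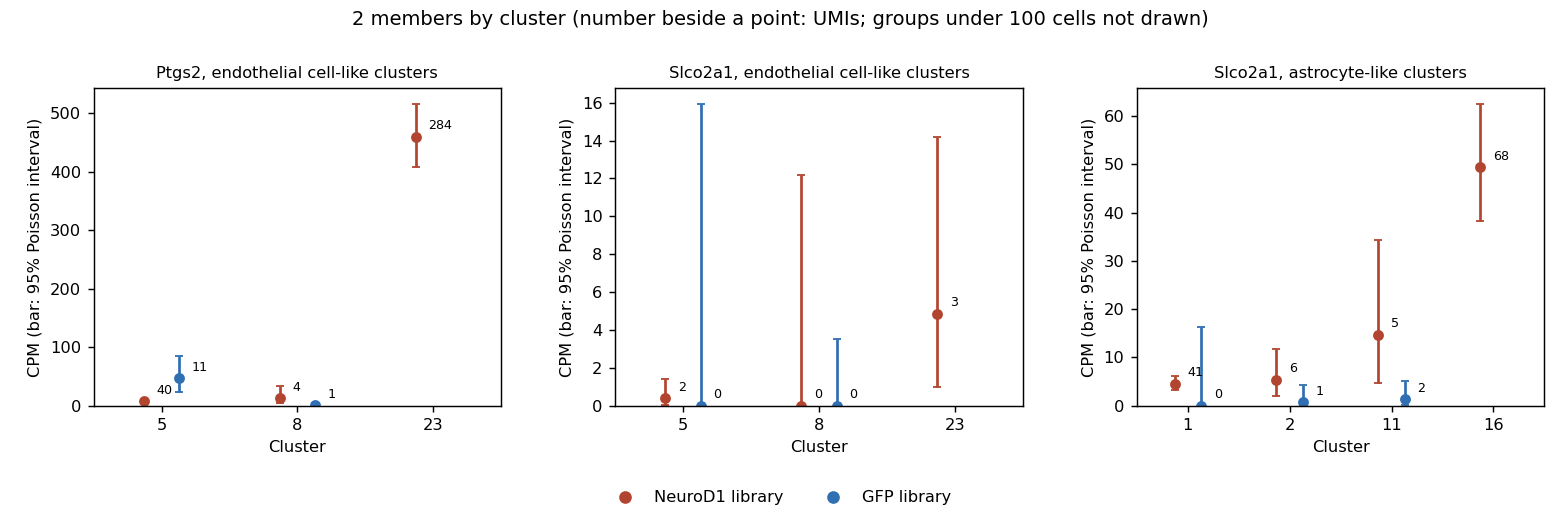
CPM with 95% Poisson intervals of Ptgs2 (left) and Slco2a1 (middle) in the endothelial cell-like clusters and of Slco2a1 in the astrocyte-like clusters (right), by library, with the UMIs beside each point; groups under 100 cells are left out. Ptgs2 stands at 460 CPM in cluster 23 and Slco2a1 at 49.4 CPM in cluster 16, both drawn for the NeuroD1 library alone.

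Hpgd, which oxidises and so inactivates prostaglandins, followed the macrophages. Microglia-like cells had 673 and 763 UMIs, or 266 CPM (246 to 287) in the NeuroD1 library, against 126 CPM (117 to 135) with GFP, a ratio of 2.11 (1.90 to 2.34). Border macrophage-like cells had 311 CPM (261 to 368) and 249 CPM (186 to 325), a ratio of 1.25. Fibroblast-like cells came next with 120 CPM and 68.4 CPM, the latter from 3 UMIs. Choroid plexus epithelium held 110 UMIs in the NeuroD1 library at a level of only 8.57 CPM.

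Alox5ap encodes the 5-lipoxygenase activating protein (FLAP), which presents arachidonic acid to the enzyme. In microglia-like cells it had 1330 and 1223 UMIs, or 525 CPM (497 to 554) in the NeuroD1 library, against 202 CPM (191 to 214) with GFP, a ratio of 2.599 (2.40 to 2.81). In border macrophage-like cells it had 515 CPM (450 to 587) and 455 CPM (369 to 555), a ratio of 1.13. That class was not pure: neutrophil markers summed to 8757 and 7527 CPM, beside 8691 and 10697 CPM of border macrophage markers. Choroid plexus markers summed to 22471 and 2026 CPM and oligodendrocyte markers to 2474 and 764 CPM in the class, and their part in its ratios was not tested. Split after the mixture was seen, 5 of its 169 and 6 of its 168 cells had more neutrophil than border macrophage marker UMIs, and these few cells held Alox5ap at 2204 CPM (1452 to 3207) and 2530 CPM (1416 to 4173). The 148 and 148 cells with more border macrophage marker UMIs had 383 CPM and 373 CPM. The remaining 16 and 14 cells had 0 UMIs of both marker lists. They held 56 and 12 Alox5ap UMIs, or 1035 CPM (782 to 1344) and 618 CPM (319 to 1079), against 27 and 15 UMIs in the neutrophil-led cells. No other member but Ptgds, with 2 UMIs, had a UMI in the neutrophil-led cells of either library, and Ptger4 kept a ratio of 9.12 (2.35 to 78.2) in the border macrophage-led cells.

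Ltc4s, leukotriene C4 synthase, joins glutathione to leukotriene A4 and so makes the first cysteinyl leukotriene. Microglia-like cells had 2920 and 2822 UMIs, or 1153 CPM (1111 to 1195) in the NeuroD1 library, against 466 CPM (449 to 484) with GFP, a ratio of 2.47 (2.35 to 2.61). Border macrophage-like cells had 526 CPM (460 to 599) and 727 CPM (617 to 851), a ratio of 0.724 (0.588 to 0.893). Choroid plexus epithelium was a second site, with 512 CPM (500 to 525) and 472 CPM (432 to 514) and a ratio of 1.09 where 9.5% of genes were higher and 31.1% lower. Its 6574 UMIs were 63.8% of all Ltc4s UMIs of the NeuroD1 library, and 23.5% of its cells in that library had a UMI after thinning. Alox5ap, by contrast, had 1.87 and 4.50 CPM in choroid plexus epithelium, and Alox5 was not among the genes that met the minimum level there.

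The microglia-like class was made of different clusters in the 2 libraries, which touches each of its ratios. Of 1231 cells in the NeuroD1 library, 1088 lay in cluster 7 and 125 in cluster 10; of 4197 cells in the GFP library, 1866 lay in cluster 4, 1296 in cluster 6 and 940 in cluster 10. Clusters 7 and 10 are led by genes of resting microglia such as Tmem119, and clusters 4 and 6 by Cst7 with Il1b or Lpl, genes known from plaque-associated microglia. The 10 microglia markers summed to 36473 CPM in cluster 7 of the NeuroD1 library and to 21243 and 18634 CPM in clusters 4 and 6 of the GFP library, so the markers moved with the members. Over the whole class choroid plexus markers summed to 15628 and 2569 CPM and red blood cell markers to 1980 and 3.63 CPM. The part of these markers in the ratios was not tested.

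Within the GFP library alone, cluster 4 had lower levels than cluster 10 of Alox5ap (160 against 370 CPM, 2.31-fold), Hpgd (105 against 199 CPM, 1.90-fold), Ltc4s (407 against 762 CPM, 1.87-fold) and Ptgs1 (201 against 373 CPM, 1.86-fold). These 4 members were lower by at least 1.5-fold where 26.3% of all genes were, and in cluster 6 the same 4 were lower by 1.57 to 2.23-fold, against a background of 26.8%. Ptger4 was lower there by 1.84-fold (0.968 to 3.56), from 19 and 24 UMIs. Ptgs2 was lower by 1.75-fold (0.694 to 4.53), from 10 and 12 UMIs. Both of these intervals hold 1. Hpgds differed less, with 480 CPM in cluster 4, 464 in cluster 6 and 636 in cluster 10. Ptgs2 and Ptger4 went the other way in cluster 4, with 55.3 against 13.3 CPM and 48.5 against 26.7 CPM, where 11.3% of genes were higher by that fold. In cluster 6, where 15.3% of genes were higher, they did not: Ptgs2 had 7.61 CPM and Ptger4 14.5 CPM.

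Compared in cluster 10 alone, the one that both libraries share most, the library ratios shrank to 1.24 (0.936 to 1.62) for Ptgs1, 1.22 (0.818 to 1.77) for Hpgd, 1.43 (1.09 to 1.84) for Alox5ap and 1.28 (1.06 to 1.54) for Ltc4s, all within 1.5-fold. Hpgds turned to 0.774 (0.594 to 0.995). The microglia markers were nearly equal in that cluster, at 30220 and 29964 CPM, but its 125 cells of the NeuroD1 library had 1105 CPM of Ptgds, the oligodendrocyte gene, against 226 in its cells of the GFP library and 289 in cluster 7, and the part of this in the ratios was not tested. Ptgs2 and Ptger4 had 0 UMIs in the 125 cells of the NeuroD1 library and 12 and 24 in the 940 cells of the GFP library, so no difference was detectable for them at this depth. Cluster 7 gave ratios of 1.26, 1.30, 1.03 and 1.43 for the same 4 genes, with 95 cells in the GFP library.

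**Figure D4:**
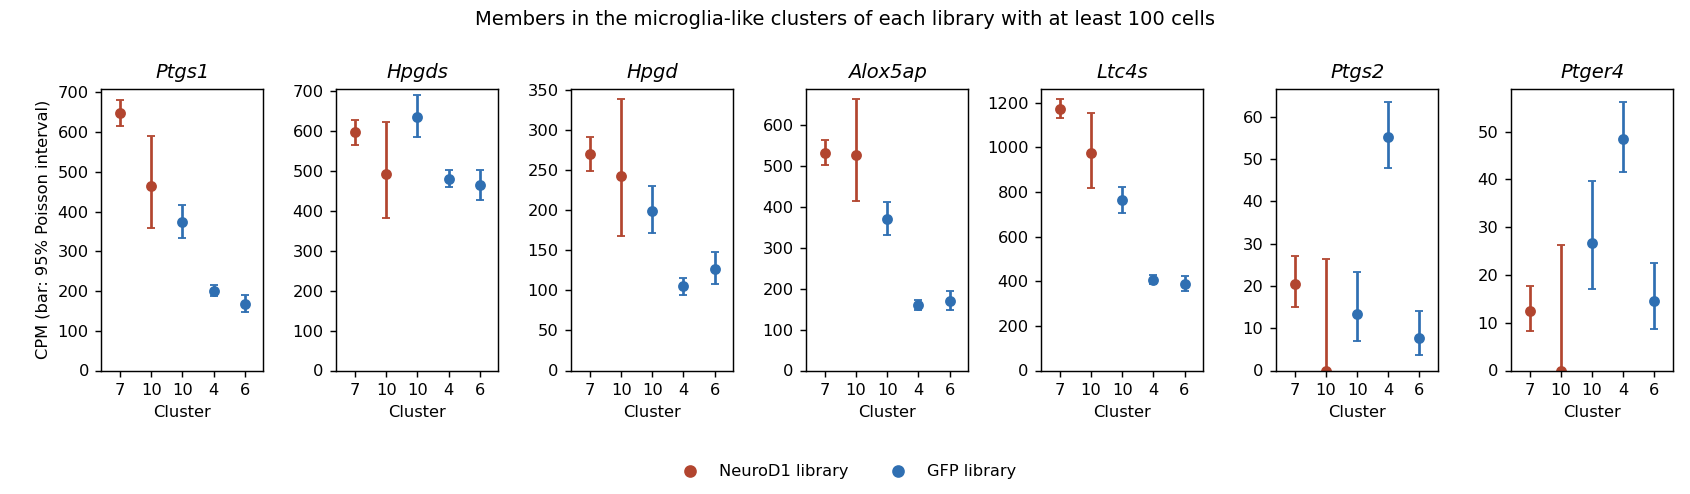
CPM with 95% Poisson intervals of 7 members in the microglia-like clusters with at least 100 cells in a library (NeuroD1 library: clusters 7 and 10; GFP library: clusters 10, 4 and 6). Ptgs1, Hpgd, Alox5ap and Ltc4s are lower in clusters 4 and 6 than in cluster 10, and Ptgs2 and Ptger4 are highest in cluster 4, at 55.3 and 48.5 CPM.

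Some single cells, though not most, had UMIs of more than 1 of these genes after thinning. After thinning to 500 UMIs, 79.3% of microglia-like cells in the NeuroD1 library had a UMI of at least 1 of Ptgs1, Hpgds, Hpgd, Alox5ap and Ltc4s and 37.9% of at least 2, against 49.7% and 13.4% in the GFP library. At least 3 were found in 11.5% and 1.98% of microglia-like cells. In border macrophage-like cells at least 1 was found in 53.8% and 58.3%, and in oligodendrocyte-like cells in 0.729% and 2.33%. At least 2 were found in 18.9% and 16.1% of border macrophage-like cells. These shares were not compared with those expected from each gene alone.

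The likeness of patterns across classes was measured by Pearson's r of log2(CPM + 1) over 20 points, 10 classes in each of 2 libraries, which share libraries and depth and are a description only. The genes most like Hpgds were Fcrls, C1qa and C3ar1 (r of 0.99, 0.98 and 0.98), and those most like Alox5ap were Cd300a, Adgre1 and Alox5 (0.97, 0.97 and 0.96). Ptgs1 was most like Adrb1, Zfp710 and Abcc3 (0.92, 0.92 and 0.90), Ltc4s like Rbm47, H2-DMb1 and Ctsc (0.91, 0.90 and 0.88), and Ptger4 like Lcp2, Arhgap45 and Lpxn (0.91, 0.90 and 0.89). Ptgds was most like Auh, Nkain2 and Car2 (0.90, 0.86 and 0.86). The sparse genes Slco2a1, like AI849053, Gal and Emx2os (0.90, 0.89 and 0.85), and Ptgs2, like Trim65, Sh3pxd2a and Tubb6 (0.88, 0.87 and 0.86), rest on few UMIs.

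Of 62 other genes of the pathway, in 6 lists, 60 were in the files, and 43 met the minimum level in at least 1 compared class. Their 142 gene and class pairs were higher in 31, lower in 15 and within 1.5-fold in 96, and their median log2 ratio was 0.19. Over all genes and the same classes 19.1% of pairs were higher and 17.7% lower, and the counts of the lists below are to be read against these shares. In microglia-like cells 10 of 25 pairs were higher and 2 lower, where 38.1% and 16.3% of all genes of the class were.

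Among 18 genes of arachidonate release and handling, 13 of 57 pairs were higher and 4 lower. Pla2g15, a lysosomal phospholipase, had 262 and 94.5 CPM in microglia-like cells, a ratio of 2.77 (2.47 to 3.10), and Lpcat3, which puts arachidonate back into membranes, had 151 and 57.0 CPM, a ratio of 2.65 (2.28 to 3.07). Daglb, a diacylglycerol lipase, was lower in astrocyte-like cells, at 25.6 and 46.7 CPM (0.549, 0.447 to 0.676), and Pla2g6, a calcium-independent phospholipase, in endothelial cell-like cells, from 23 and 11 UMIs (0.456, 0.213 to 1.04). Pla2g4a, the cytosolic phospholipase that supplies the cyclooxygenases, had 80.9 and 37.3 CPM in microglia-like cells and 77.0 and 68.7 CPM in endothelial cell-like cells.

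For prostanoid synthesis beyond the members, 6 of 35 pairs were higher and 5 lower. Ptgis, prostacyclin synthase, was found mainly in smooth muscle-like cells, at 144 and 52.9 CPM (2.73, 1.58 to 5.06). Ptges, the inducible prostaglandin E synthase, was higher in endothelial cell-like cells, at 32.1 and 16.02 CPM (2.004, 1.27 to 3.31), and lower in astrocyte-like cells, at 10.9 and 22.7 CPM (0.483, 0.357 to 0.658). It had 0 UMIs in microglia-like cells with NeuroD1 and 5 with GFP, and was at 135 and 160 CPM in fibroblast-like cells. Akr1b3, an aldose reductase that can make prostaglandin F2alpha, was lower in microglia-like cells, at 28.02 and 57.6 CPM (0.486, 0.371 to 0.629). Tbxas1, thromboxane synthase, was highest in microglia-like cells in both libraries, at 227 and 206 CPM.

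Of 8 prostanoid receptor genes other than Ptger4, 2 met the minimum level, with 1 pair each and both within 1.5-fold. Tbxa2r, the thromboxane receptor, was highest in pericyte-like cells, at 396 and 345 CPM, a different class from that of its ligand's synthase. Ptgdr, the receptor for prostaglandin D2, had 29 of its UMIs in fibroblast-like cells of the NeuroD1 library and 0 there in the GFP library, which had 28 such cells. In transport and breakdown 4 of 17 pairs were higher and 1 lower: Ptgr2, a prostaglandin reductase, was higher in microglia-like cells, at 44.6 and 27.8 CPM (1.61, 1.26 to 2.05), and lower in pericyte-like cells, at 43.5 and 96.3 CPM (0.451, 0.240 to 0.876), and Ptgr1 had 34 and 7 UMIs in smooth muscle-like cells (2.03, 0.886 to 5.43).

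Among the other leukotriene and lipoxygenase enzymes 6 of 24 pairs were higher and 4 lower. Alox5, 5-lipoxygenase itself, had 42.2 and 15.4 CPM in microglia-like cells (2.75, 2.06 to 3.67) and 50.3 and 51.6 CPM in border macrophage-like cells. Abcc1, which exports leukotriene C4, was higher in microglia-like cells, from 42 and 45 UMIs (2.23, 1.43 to 3.47). Cyp4f18, which inactivates leukotriene B4, was lower there, with 3 and 69 UMIs (0.104, 0.0209 to 0.317), and Mgst2, a second enzyme able to make leukotriene C4, was lower in endothelial cell-like cells, from 15 and 10 UMIs (0.327, 0.137 to 0.814). Lta4h, which makes leukotriene B4, was spread over the classes, between 24.9 and 79.7 CPM in the microglia, border macrophage, astrocyte, endothelial, pericyte and smooth muscle-like classes of both libraries.

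Of the leukotriene and related receptors, 2 of 7 pairs were higher and 1 lower. Cysltr1, the first cysteinyl leukotriene receptor, had 115 and 36.2 CPM in microglia-like cells (3.19, 2.67 to 3.81), and Cmklr1, the chemerin receptor, 142 and 53.2 CPM (2.67, 2.29 to 3.12). Cysltr2, the second receptor, had 61.9 and 106 CPM in smooth muscle-like cells (0.585, 0.358 to 0.968) and was highest in pericyte-like cells, at 118 and 125 CPM.

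**Figure D5:**
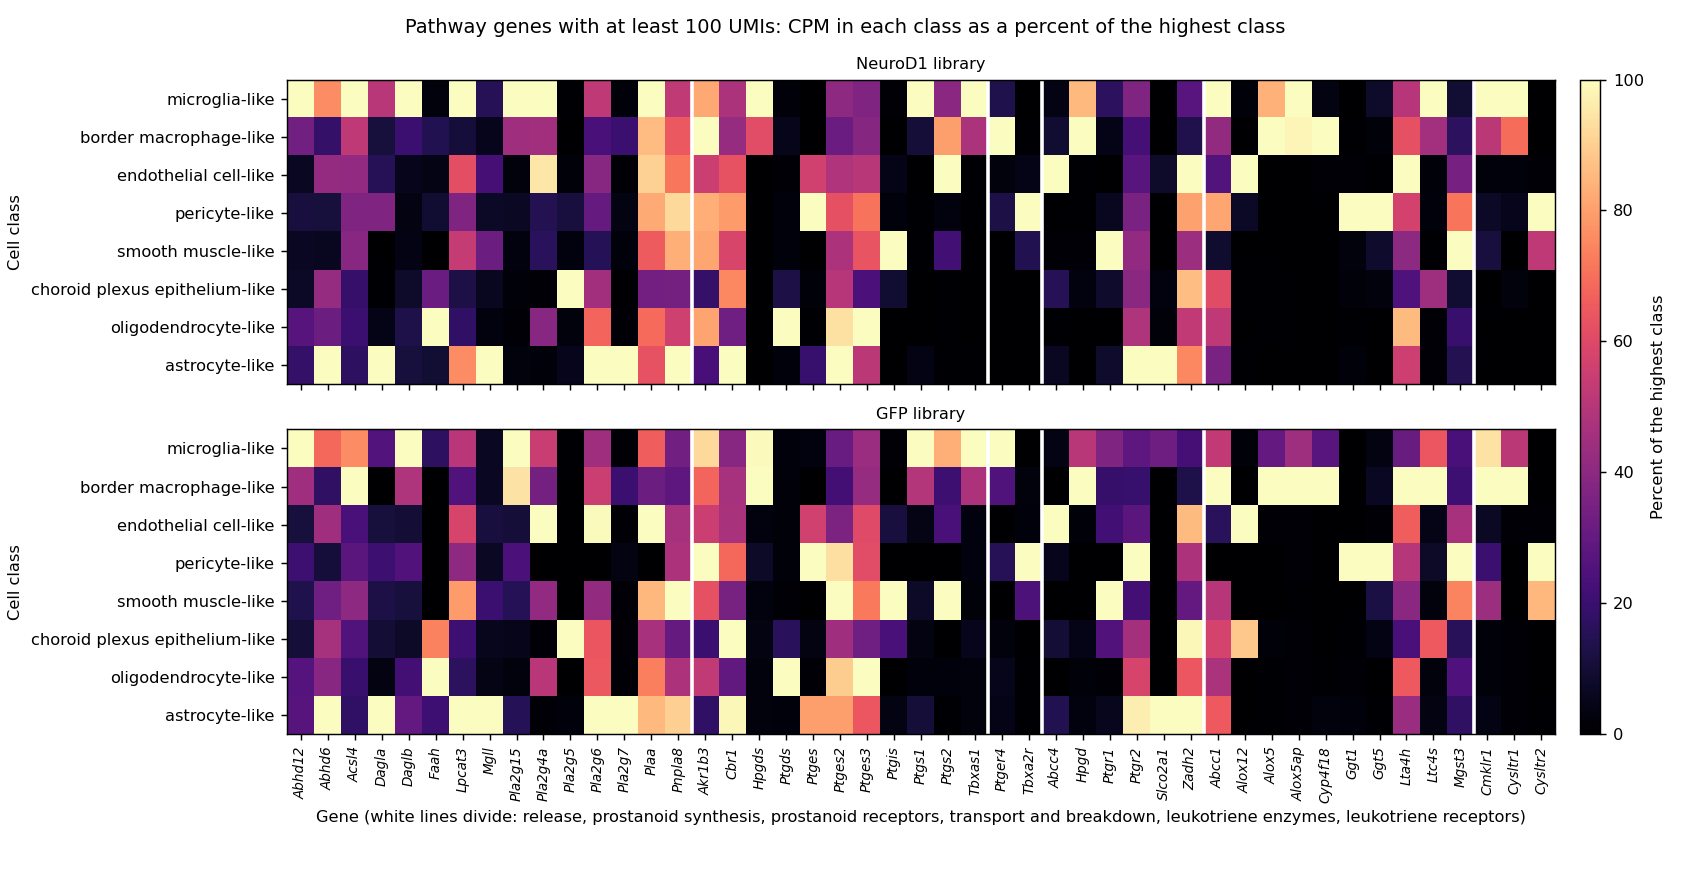
CPM of the 47 pathway genes with at least 100 UMIs (columns, grouped by role) in the 8 compared classes (rows) as a percent of the class with the highest CPM, in the NeuroD1 library (top) and the GFP library (bottom). Bright squares in the microglia or border macrophage row mark Hpgds, Hpgd, Ptgs1, Tbxas1, Alox5 and Alox5ap, those in the pericyte row Tbxa2r, Ggt1, Ggt5 and Cysltr2.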

How the data were processed

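The deposited files hold raw UMI counts per gene and barcode, which the authors made, per the submitters' processing notes, with FastQC, fastp, cutadapt, STAR and featureCounts on build mm39; versions, strand setting and annotation are not given in the sources used here. GEO's labels name 2 single-cell platforms, and which was used is not settled. Barcodes under 200 genes or above 20% mitochondrial UMIs were dropped (131 and 104), and Scrublet marked 487 (3.67%) and 553 (4.75%) as doublets, which were removed. Both libraries were clustered together in scanpy 1.11.5 (3000 variable genes, 30 principal components, 15 neighbours, Leiden resolution 1, leidenalg 0.10.2), with the pathway genes kept out, into 26 clusters. A cluster was called "X-like" from at least 3 listed markers that were at least 2-fold higher and in at least 10% of cells, and 3 clusters stayed unnamed; differences from other accounts of these data may come from these rebuilt names.

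Counts were summed per class and library. CPM have exact Poisson intervals, ratios exact conditional binomial intervals and shares Clopper-Pearson intervals, at 95%. They cover counting error only and ignore the spread between animals, which 1 library per group cannot give. They were tested on simulated counts drawn with the same counting error that they assume. That test left out UMIs gathered in few cells, so it cannot show how the intervals hold for such genes. A limit for 0 UMIs is 3 counts. A pair of gene and class counts if its CPM is at least 25% of the highest compared class in 1 library, with at least 20 UMIs in the libraries together. Named were all 9 members, per other list and direction the 2 genes whose ratio interval ends farthest from 1, Alox5, Lta4h, Ptges, Tbxas1, Pla2g4a and Ptgdr, and the 3 genes most like each member among those with at least 200 UMIs, over classes with at least 30 cells in each library, leaving out mitochondrial, ribosomal, haemoglobin, Gm- and Rik-named genes (the result for Hpgd is not reported here); further genes named with their highest class, and the astrocyte and neutrophil-led values, were chosen after their values were seen. The members and lists were chosen with earlier results of these data known. Promoters come from RefSeq (GRCm38.p6), another build than the counts. Intervals were computed with scipy 1.17.1, and the other software was Python 3.11.15, pandas 2.3.3, numpy 2.4.6, scikit-learn 1.9.0, igraph 0.11.9 and matplotlib 3.10.9.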

Additional observations from a re-analysis of the deposited data

Results flagged for a closer look

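Ptgs2 and Ptger4 differed between the libraries in opposite directions in different classes, and this difference between classes was not tested. Ptgs2 had a CPM ratio (NeuroD1 over GFP library) of 4.64 in border macrophage-like and 5.11 in endothelial cell-like cells, and of 0.569 in microglia-like and 0.257 in smooth muscle-like cells. The border macrophage value rests on 19 and 2 UMIs in 4 cells and 1 cell, and the endothelial value on cluster 23, without which it is 0.874. Ptger4 had a ratio of 10.0 in border macrophage-like and 0.341 in microglia-like cells; the first rests on 2 UMIs in the GFP library.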

How the results depend on the processing

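The 19 member ratios were recomputed under 14 other settings, which gave 265 values; 1 changed direction, and 5 of the 13 ratios past 1.5-fold stayed past it in every setting that gave a value, leaving out Ptgs2 and Ptger4 in microglia-like cells, which had 0 UMIs in the NeuroD1 cells of the shared cluster, where no difference was detectable. Many of these values could hardly differ from the main ones. The settings without cluster 16, without cluster 23 and without neutrophil-led cells each change 1 class only. At both other resolutions the ratios in border macrophage-like, smooth muscle-like and choroid plexus epithelium-like cells equalled the main ones. The count of 1 among 265 values therefore says little about how stable the ratios are. Without cluster 23, a setting added after seeing the data, the endothelial Ptgs2 ratio was 0.874. In only the cluster that both libraries share most, 3 of the 9 higher member pairs were counted as higher. Border macrophage-like, smooth muscle-like and choroid plexus epithelium-like cells are 1 cluster each, so this setting only repeats their main ratios. Ptgs2 and Ptger4 in border macrophage-like cells are among the 3 for that reason. Together with Ptgs1 there, they are also among the 5 ratios above. In the shared cluster Slco2a1 in astrocyte-like and Ptgs2 in endothelial cell-like cells kept ratios of 6.93 and 13.9, but with 7 and 5 UMIs in both libraries they fell under the minimum of 20. In cluster 5, another endothelial cluster, Ptgs2 went the other way, with 40 and 11 UMIs and a ratio of 0.165 (0.0832 to 0.357). Of the 11 UMIs, 10 came from 1 cell. Ptgs1, Hpgd, Alox5ap and Ltc4s in microglia-like cells were no longer past 1.5-fold in the shared cluster. Thinning moved Ptgs2 in smooth muscle-like cells to 0.946, and Ptger4 in border macrophage-like cells gave no value. The 15 lower pairs of other pathway genes became 9 with thinning, 23 with the lowest class level subtracted, 24 at a minimum of 5 UMIs, 7 at 50 and 36 with no minimum, and the 31 higher pairs became 56 with no minimum. The settings for cluster 16 and for neutrophil-led cells were also added after seeing the data. No paired analysis was possible because each group is 1 library. Depth limits Slco2a1, Ptgs2 and Ptger4 most, with 7, 273 and 252 UMIs in the GFP library.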

Other observations

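Cluster 15 was left unnamed since cell-cycle genes such as Top2a and Mki67 are among its leading genes, beside the neuronal precursor genes Igfbpl1 and Neurod1. No microglia marker leads it, but 5 of the 10 met the naming limits there, and it also held the macrophage members. It had 153 cells with NeuroD1 and 90 with GFP. There Ptgs1 had 155 and 215 CPM, Ltc4s 145 and 151 CPM, Alox5ap 116 and 167 CPM, Hpgds 65.1 and 188 CPM and Hpgd 57.0 and 48.5 CPM. The 10 microglia markers summed to 6473 and 12176 CPM there. Of the fibroblast-like cells of the NeuroD1 library, 1 cell held 272 of the 273 mast cell marker UMIs of that class. Dpep1, a dipeptidase that turns leukotriene D4 into E4, had 73 and 19 UMIs in fibroblast-like cells, 224 and 433 CPM.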
